A study of Rattus norvegicus with 4 samples.

Results

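The genes described here encode the subunits and close regulators of potassium, sodium and calcium channels, chosen as every listed symbol that begins with Kcn, with Scn followed by a digit, or with Cacn. They were 134 of the 30708 genes listed for S16 cells: 94 potassium, 14 sodium and 26 calcium channel genes. By role, 87 encode pore-forming subunits, 36 auxiliary subunits and 10 silent subunits that modify other potassium channels, and 1, Kcnrg, encodes a soluble regulator. S16 is an immortalized line of rat Schwann cells, the glia that wrap peripheral axons. Poly(A) RNA was sequenced from 2 unmodified populations, one at passage 9, the parental cells of the rSOX-4 deletion mutants made in the same study, and one at passage 39. Each population had 2 libraries that the labels call technical replicates. Both populations were unmodified, and no library of edited cells was analysed here. A confluent flask was the source of the RNA, and the line is a cultured, immortalized model without axons.

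The levels are given as RPKM (reads per kilobase of gene length per 1000000 reads), a scale that is per length and so allows genes to be compared. Library totals were between 34.2 and 41.4 M reads (M, 1000000). A count of 0 allows up to 3 reads, which for a gene of 1 kilobase is 0.0725 to 0.0876 RPKM in these libraries. The intervals on single libraries are exact binomial intervals and cover counting error only. All 10 Schwann cell markers were at 1 RPKM or more in all 4 libraries, among them Pmp22, with a mean of 1255 RPKM. Of 10 neuron markers 3 reached 1 RPKM in every library (Nefl, Tubb3 and Nefm), while Snap25, Rbfox3 and Nefh had means of 0.00291, 0.00354 and 0.00190 RPKM and Syt1, Stmn2 and Elavl4 were at 0. None of 8 skeletal muscle markers reached 1 RPKM in every library and Myog was at 0. The highest of them by its mean, Myod1, did so in the second technical replicates alone. It was at 0.261 and 1.36 RPKM in the first and second replicates of passage 9 and at 0.165 and 1.56 in those of passage 39. Of 6 fibroblast markers 2 reached it (Col1a1 and Pdgfra, with Thy1 at 0), and of 5 melanocyte markers 1 did (Pmel, with Tyr at 0).

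The 4 libraries stood together by technical replicate number and not by passage, which touches every comparison below. The first technical replicates of the 2 passages differed by an exact binomial test of reads at 7 of 13584 genes, whereas the first and second replicates of passage 9 differed at 8462 of 13585. A batch that follows the replicate number and a crossing of the passage labels cannot be told apart from these labels. The methods say that technical replicates were pooled and spread over 2 lanes, and neither they nor the labels say whether the replicates were separate preparations of the RNA.

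Voltage-gated channels are built around a large pore-forming subunit, to which smaller auxiliary subunits bind that set its gating and its delivery to the membrane. In nerve, axons carry the sodium channels of the action potential at the nodes of Ranvier and potassium channels beside them. Schwann cells do not fire action potentials, but are known to hold potassium channels that clear the ion from around the axon and set the resting potential, and voltage-gated sodium and calcium channels have been recorded in cultured Schwann cells. An RNA level does not say whether a channel protein is at the membrane.

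Few channel genes reached 1 RPKM. Of the 134 genes, 14 (10.4%) were at 1 RPKM or more in all 4 libraries, beside 10720 (34.9%) of all listed genes. Another 7 reached 1 RPKM in at least 1 library and not in all. At the other end, 35 channel genes (26.1%) were at 0 in every library, beside 33.8% of all listed genes, and a further 42 had between 1 and 9 reads over the 4 libraries together. The remaining 43 had 10 reads or more without reaching 1 RPKM everywhere. The 14 genes were spread over the 3 ions, with 9 potassium, 2 sodium and 3 calcium channel genes. By role they were 7 pore-forming subunits, 6 auxiliary subunits and Kcnrg, and none of the 10 silent subunits was among them.

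**Figure D1:**
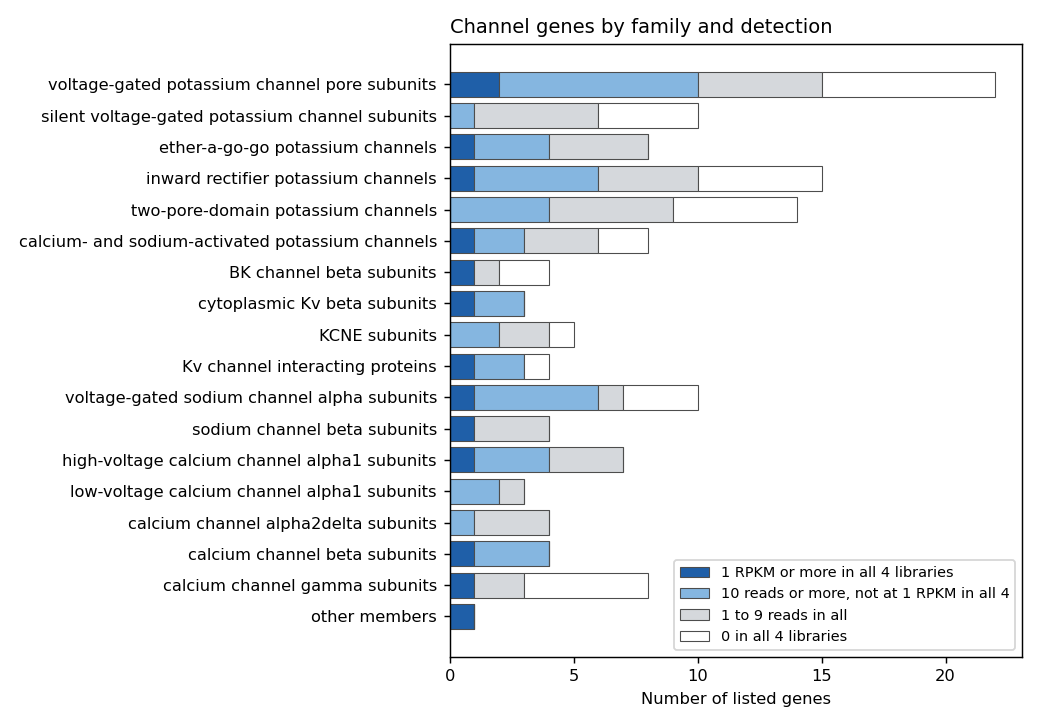
Number of listed channel genes (horizontal axis) in each family (vertical axis), split by detection: at 1 RPKM or more in all 4 libraries, with 10 reads or more over the 4 libraries, with 1 to 9 reads, or at 0 in all 4. In most families 1 gene reached 1 RPKM in every library, the pore subunits of voltage-gated potassium channels had 2, and the silent subunits, two-pore-domain channels, KCNE subunits, low-voltage calcium channels and alpha2delta subunits had none.

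In most families 1 gene made up most of the RPKM. Among the 10 alpha subunits of sodium channels, Scn7a held 96.2 to 99.1% of the family's RPKM over the libraries, and the next gene, Scn4a, had a mean of 0.482 RPKM. Cacna2d2 held 98.4 to 100% among the 4 alpha2delta subunits, which carry calcium channels to the membrane. Cacnb3 held 92.5 to 95.9% of the 4 calcium channel beta subunits, Kcnn1 93.6 to 97.9% of the 8 calcium- and sodium-activated potassium channels, and Kcnd3 83.9 to 92.8% of the 22 pore subunits of voltage-gated potassium channels. The lead was narrower among the 15 inward rectifiers, where Kcnj14 held 71.9 to 76.1%. Summed over all 134 genes, the RPKM was 175 in both first replicates and 123 in both second replicates. Scn7a and Kcnd3 together were 59.5 and 60.0% of that sum in the first replicates and 38.2 and 38.6% in the second.

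Scn7a was the highest channel gene by its mean, 42.3 RPKM, and stood at rank 1672 among all listed genes. It encodes an unusual sodium channel alpha subunit that is known as a sensor of extracellular sodium in glia and opens little, if at all, to voltage alone. It was at 66.7 RPKM in the first and 17.3 in the second replicate of passage 9, and at 67.6 in the first and 17.6 in the second replicate of passage 39. The first replicates were thus high and the second low in both passages, on 19291 and 4249 reads at passage 9 and on 16181 and 5048 at passage 39.

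The sodium channels known from excitable cells were at low levels or at 0. Scn4a, the skeletal muscle channel, had 0.418, 0.481, 0.493 and 0.536 RPKM in the first and second replicates of passage 9 and then of passage 39, on 537 reads in all. Scn8a, the main channel of mature nodes of Ranvier, had 2 reads over the 4 libraries. Scn9a and Scn10a, which serve sensory neurons, had none.

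Kcnd3 was the highest potassium channel gene, with a mean of 33.5 RPKM and rank 2148. It encodes a pore subunit of the fast-inactivating A-type current. Its levels were 37.2 and 29.5 RPKM in the first and second replicates of passage 9 and 37.3 and 29.8 in those of passage 39. Kcnd1, of the same subfamily, was lower, at 1.28 and 2.26 RPKM at passage 9 and 1.42 and 2.21 at passage 39, and its second replicates were the higher ones. Kcnip3, a calcium-binding protein that attaches to these A-type subunits and is also known as a transcriptional repressor, was at 2.00 and 2.47 RPKM at passage 9 and 1.90 and 2.33 at passage 39. Kcnip4, of the same family, was at 0.946 and 1.06 RPKM in the first replicates and at 0.275 and 0.227 in the second.

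Kcnab3, a cytoplasmic beta subunit, was at 2.13 and 2.29 RPKM at passage 9 and 1.84 and 2.15 at passage 39. Kcnrg, which hinders the assembly of voltage-gated potassium channels, was at 2.61 and 3.18 RPKM in the first replicates and 1.55 and 1.90 in the second. Its counts were small, with 282 reads in all.

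Kcnn1, a small-conductance channel opened by calcium, was at 5.52 and 5.91 RPKM in the first replicates and 8.90 and 8.81 in the second. Kcnmb4, an auxiliary subunit of the large-conductance calcium-activated channel, was at 4.25 and 4.84 RPKM in the first and 3.10 and 3.45 in the second replicates. The pore subunit that Kcnmb4 is known to join, Kcnma1, had 2 reads over the 4 libraries. Kcnh8, of the ether-a-go-go family, was at 3.64 and 3.84 RPKM in the first and 2.13 and 2.06 in the second replicates. In the same family Kcnh2, best known for cardiac repolarization, was at 0.646 and 0.555 in the first and 0.908 and 1.01 in the second.

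Kcnj14 was the highest inward rectifier, at 4.29 and 4.47 RPKM at passage 9 and 4.11 and 4.25 at passage 39, levels that hardly differed among the libraries. Kcnj10, the inward rectifier of glia that take up potassium, was much lower, at 0.935 and 0.746 RPKM in the first and 0.276 and 0.353 in the second replicates, on 128 reads in all. Kcnj2 had 1 read. Kcnk5, the highest two-pore-domain channel, a class that carries the resting leak of potassium, was at 1.13 and 1.24 RPKM in the first and 0.632 and 0.708 in the second replicates. Kcnk1 had 1 read and Kcnk2 had none. Kcne2, the highest of the small single-pass KCNE subunits, had a mean of 0.519 RPKM, and Kcng1, the highest silent subunit, had 0.0289 on 10 reads.

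Several potassium channels that textbooks place in axons or in Schwann cells had a handful of reads or none. Kcna1, the channel beside the nodes, and Kcna5, described in Schwann cells, were at 0 in every library. Kcna2, the usual partner of Kcna1, had 24 reads, Kcnc1 had 16, Kcnq5 had 13, and Kcnc2, Kcnq3 and Kcnn4 had 1 each. Of 32 channel genes listed from textbook knowledge of Schwann cells, axons and muscle, 5 were at 1 RPKM or more in all libraries (among them Scn7a, Kcnmb4, Cacna1c and Cacnb3) and 6 were at 0 in all of them (among them Kcna1, Kcna5, Kcnk2, Scn9a and Scn10a).

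Among calcium channels the highest gene was an auxiliary subunit. Cacnb3, a cytoplasmic beta subunit that brings alpha1 subunits to the membrane, was at 13.1 and 12.3 RPKM in the first and 19.8 and 19.1 in the second replicates, with a mean of 16.1. Cacna1c, the pore of the L-type channel of heart, smooth muscle and brain, was at 5.18 and 4.99 RPKM in the first and 3.96 and 3.83 in the second replicates. Cacnb3 was thus above Cacna1c in every library. Cacna1a, the P/Q-type pore of synapses, was near 1 RPKM in the first replicates, at 0.984 and 1.01, and at 0.618 and 0.715 in the second. The low-voltage, T-type pores Cacna1h and Cacna1g had means of 0.560 and 0.268 RPKM. Cacna1s, the pore of skeletal muscle, had 28 reads over the 4 libraries, Cacna1d had 6 and the N-type pore Cacna1b had 4.

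Cacna2d2, an alpha2delta subunit, straddled the minimum, at 1.02 and 0.935 RPKM in the first and 1.60 and 1.52 in the second replicates. Cacna2d1, the alpha2delta subunit known from muscle and sensory neurons, had 2 reads. Cacng4 belongs to the gamma family but is better known as an auxiliary subunit of glutamate receptors. It was at 3.05 and 3.23 RPKM in the first and 1.13 and 1.14 in the second replicates, and 5 of the 8 gamma genes were at 0 in every library.

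**Figure D2:**
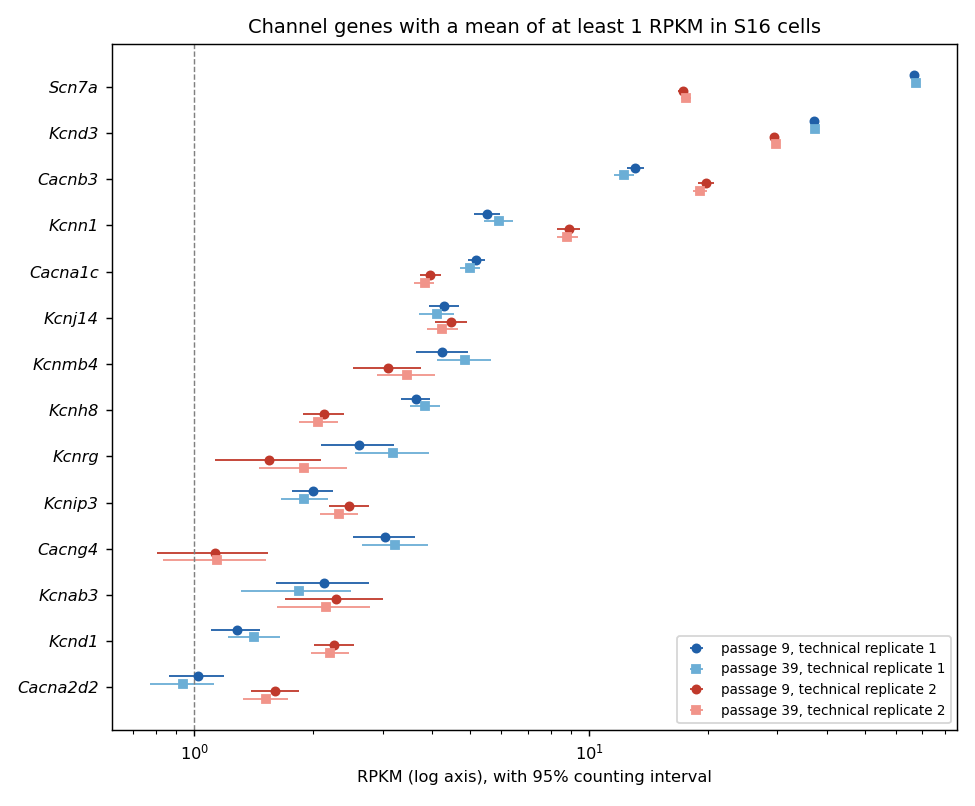
RPKM on a log axis (horizontal) of 14 of the 17 channel genes that averaged 1 RPKM or more (vertical). Each library has 1 point with its 95% binomial counting interval. Circles are passage 9, squares passage 39, blue the first and red the second technical replicates, and the dashed line is 1 RPKM. For Scn7a the blue points are at 66.7 and 67.6 RPKM and the red ones at 17.3 and 17.6, whereas for Kcnj14 the colours overlap.

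The order of the levels depended on the replicate number, at the top as well. Scn7a was above Kcnd3 beyond the counting intervals in both first replicates and below it in both second replicates, with ratios of Scn7a to Kcnd3 of 1.79 and 1.81 in the first and 0.587 and 0.589 in the second. Against Cacnb3, Scn7a was also above beyond the intervals in the first replicates and below in the second, at 17.3 RPKM (16.8 to 17.8) against 19.8 (18.9 to 20.7) at passage 9 and at 17.6 (17.1 to 18.1) against 19.1 (18.3 to 19.9) at passage 39. Scn7a was thus first among the plotted genes in the first replicates and behind Kcnd3 and Cacnb3 in the second. Of the genes plotted, Kcnd3, Cacnb3 and Kcnn1 followed each other in this order with intervals that did not overlap in any of the 4 libraries. Below Kcnn1 the neighbours were not separated in every library. Cacna1c and Kcnj14, for example, were apart in the 2 first replicates alone, and Kcnip3 and Cacng4, with nearly equal means of 2.17 and 2.14 RPKM, stood in opposite orders in the first and second replicates.

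The second technical replicates were then compared with the first over both passages, by limma on log2(RPKM + 1) across the 11025 genes whose mean was 1 RPKM or more. Of the 17 channel genes among them 15 passed at an adjusted p of 0.05, 8 higher and 7 lower in the second replicates. The background was high as well: 73.7% of all tested genes passed, 49.4% higher and 24.4% lower. Of all calls 66.9% were thus higher, a share that became 43.4% when each library was rescaled to a common sum and 53.4% with median-ratio scaling. The channel genes then split into 5 higher and 7 lower, and into 6 and 7. The p-values come from 2 libraries a side and measure the spread between libraries of the same number and nothing about populations. The median difference was 0.11 over the 17 channel genes and 0.10 over all tested genes, and the median size of the difference, sign aside, was 0.38 and 0.21.

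Scn7a showed the largest change of the 17. On the log2(RPKM + 1) scale it was lower in the second replicates by 1.88, with a difference of -1.88 (SE 0.025, 95% interval -1.94 to -1.83, limma adjusted p = 5.99e-09), which placed it at rank 14 among the genes that were lower. It was the single channel gene to differ 2-fold on this scale, beside 1.09% of all tested genes (120). Its RPKM in the first replicates was 3.85 times that in the second. Without a pseudocount and over genes with at least 20 reads in all, 16 of 46 channel genes had means 2-fold or more apart in RPKM (7 higher, 9 lower in the second replicates), beside 7.26% of all such genes. Of these 16, 3 had a mean of 1 RPKM or more, so that the others rest on low levels. Cacng4 differed by -0.96 (SE 0.057, limma adjusted p = 3.87e-06), and without the pseudocount it was past 2-fold, its first replicates being 2.77 times the second. The other genes that fell were Kcnh8 (-0.61), Kcnrg (-0.51), Kcnmb4 (-0.37), Kcnd3 (-0.32) and Cacna1c (-0.31). Among the genes that rose were Cacnb3 (0.57, SE 0.039, limma adjusted p = 7.28e-06), Kcnn1 (0.55), Kcnd1 (0.46), Cacna2d2 (0.37) and Kcnip3 (0.20).

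Genes for auxiliary and pore-forming subunits of one channel type did not all move in one direction. Which subunits join in these cells was not measured. Cacnb3 and Cacna2d2 rose where Cacna1c fell, and Kcnd1 and Kcnip3 rose where Kcnd3 fell. Kcnj14 and Kcnab3 did not pass, with limma differences of 0.04 (95% interval -0.07 to 0.16, adjusted p = 0.435) and 0.11 (-0.05 to 0.27, adjusted p = 0.170). Kcnip3 no longer passed with either rescaling, without the second replicate of passage 9 or without the first replicate of passage 39. Over the 4 fits that left out 1 library each, 12 to 15 channel genes passed. The 2 libraries of one number did not overlap those of the other for 16 of the 17 channel genes, beside 87.7% of all tested genes, Kcnj14 being the exception.

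**Figure D3:**
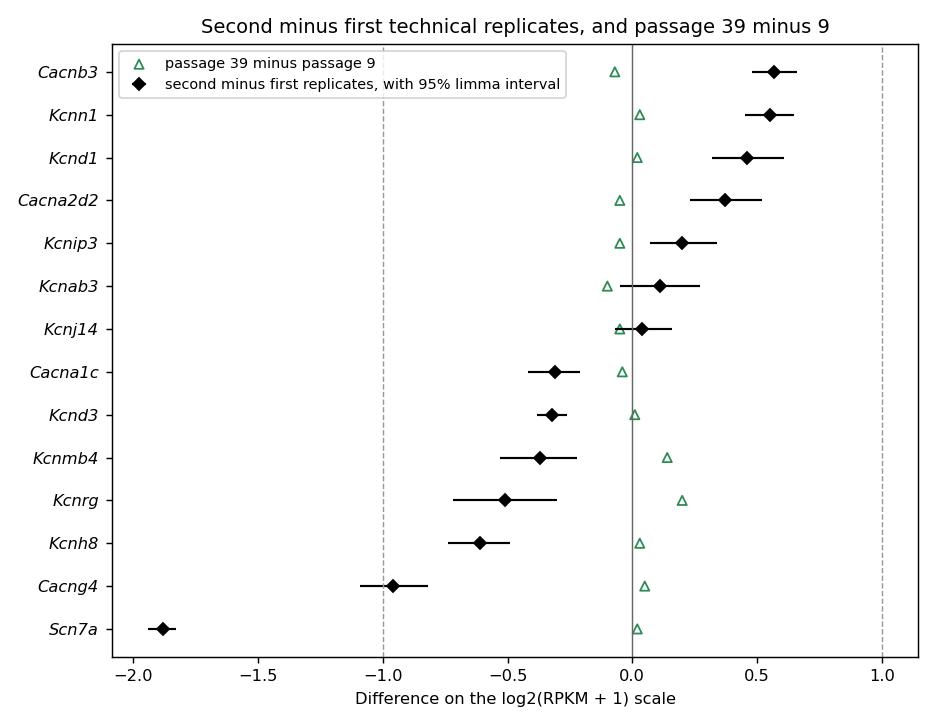
Difference on the log2(RPKM + 1) scale (horizontal) of 14 of the 17 channel genes that averaged 1 RPKM or more (vertical): black diamonds are the second minus the first technical replicates over both passages with the 95% limma interval, open triangles are passage 39 minus passage 9, and dashed lines mark 2-fold. The diamonds run from -1.88 (Scn7a) to 0.57 (Cacnb3), whereas the triangles run from -0.10 to 0.20.

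The same contrast was made on reads within each passage, with an exact binomial test of 2 libraries that covers counting error alone and reaches genes below 1 RPKM. At passage 9 it called 29 of 40 channel genes (11 higher, 18 lower in the second replicate), beside 62.3% of all genes, and at passage 39 it called 27 of 38 (11 higher, 16 lower), beside 60.5%. In both passages and in one direction it called 24 of 37, 9 higher and 15 lower, beside 53.7% of all genes tested in both. Of these 24, 10 had a mean under 1 RPKM. The second replicates were lower there for Cacna1a, Kcnk5, Kcnip4, Kcnj10, Kcne2, Cacnb4, Kcnab2 and Scn2a1, and higher for Kcnh2 and Kcnj4. Kcnip4 was at 1.00 RPKM in the mean of the first and 0.251 in that of the second replicates. Kcnj4, an inward rectifier, went the other way, from 0.186 to 0.584 RPKM. The size of the difference was tested between the passages with an exact conditional test on the reads of all 4 libraries, and after adjustment no channel gene of 46 differed, beside 14 of 14500 genes. At an unadjusted p under 0.05 it found 1 channel gene, Kcnab1, and 6.29% of all genes. Kcnab1, a cytoplasmic beta subunit, was at 0.712 and 0.310 RPKM at passage 9 and 0.437 and 0.497 at passage 39.

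Other properties of the libraries moved with the replicate number. Over all 11025 genes the difference fell with gene length, with a Spearman correlation of -0.42, and over the 17 channel genes the value was 0.04; genes of one library share its depth and preparation, so these are descriptions. Set against the median of genes of like length, Scn7a differed by -1.78 and Cacng4 by -1.18. The summed RPKM of the 10 Schwann cell markers was 4699 and 4696 in the first and 3847 and 3797 in the second replicates, with 2 of the 10, S100b among them, at least 2-fold lower. The neuron markers summed to 195 and 198 in the first and 165 and 163 in the second, those of skeletal muscle to 0.654 and 0.733 against 2.36 and 2.59, those of fibroblasts to 3349 and 3364 against 3883 and 3778, and those of melanocytes to 9.30 and 8.95 against 8.35 and 8.74. The part of gene length and of these markers in the channel differences was not tested. In a bulk sample, fewer cells of a kind and less RNA per cell cannot be told apart.

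As labelled, the passages were close, with the limit given above that a crossing of the labels cannot be told apart from a batch. With 1 population at each passage there was no test between them, and the difference was described on the log2(RPKM + 1) scale. Over the 17 channel genes it ran from -0.10 for Kcnab3 to 0.20 for Kcnrg, with a median of 0.01 and a median size of 0.05, beside -0.002 and 0.03 over all tested genes. No channel gene differed 2-fold, beside 0.00907% of all tested genes (1 gene), and without a pseudocount 0 of the 46 with at least 20 reads did, beside 0.697% of all such genes. Without the first replicate of passage 9 or that of passage 39, which leaves the passages with unequal shares of the replicate numbers, 1 channel gene did, Scn7a, and the genes in all were 25 and 27. Scn7a had means of 42.0 RPKM at passage 9 and 42.6 at passage 39 (SD between the populations 0.410, n = 2), and Kcnd3 had 33.4 and 33.5 (SD 0.131, n = 2). Kcnrg was at 2.08 and 2.54 RPKM, higher at passage 39 by 0.21 in the first and 0.18 in the second replicates on the log2 scale. The libraries of the 2 passages did not overlap for 1 of the 17 channel genes, beside 6.21% of all tested genes. That gene was Kcnj14, with means of 4.38 RPKM at passage 9 and 4.18 at passage 39, but its counting intervals overlapped between the passages. They were 3.92 to 4.69 RPKM at passage 9 and 3.71 to 4.54 at passage 39 in the first replicates. In the second replicates they were 4.06 to 4.91 and 3.88 to 4.65.

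On reads, the exact binomial test found no channel gene apart between the passages in either pair of libraries of one number. For the first replicates it called 0 of 39 channel genes, beside 0.0515% of all genes, and 2 channel genes (Cacnb1 and Kcnab1) had an unadjusted p under 0.05, beside 6.12% of all genes. For the second replicates it called 0 of 39, beside 0.311%, and none had an unadjusted p under 0.05, beside 8.25% of all genes. The lowest adjusted p of a channel gene in this exact test was 0.748 between the first replicates and 0.668 between the second. These tests compare libraries and not passages, and a difference in the levels of the weakest genes was not detectable at this depth.

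**Figure D4:**
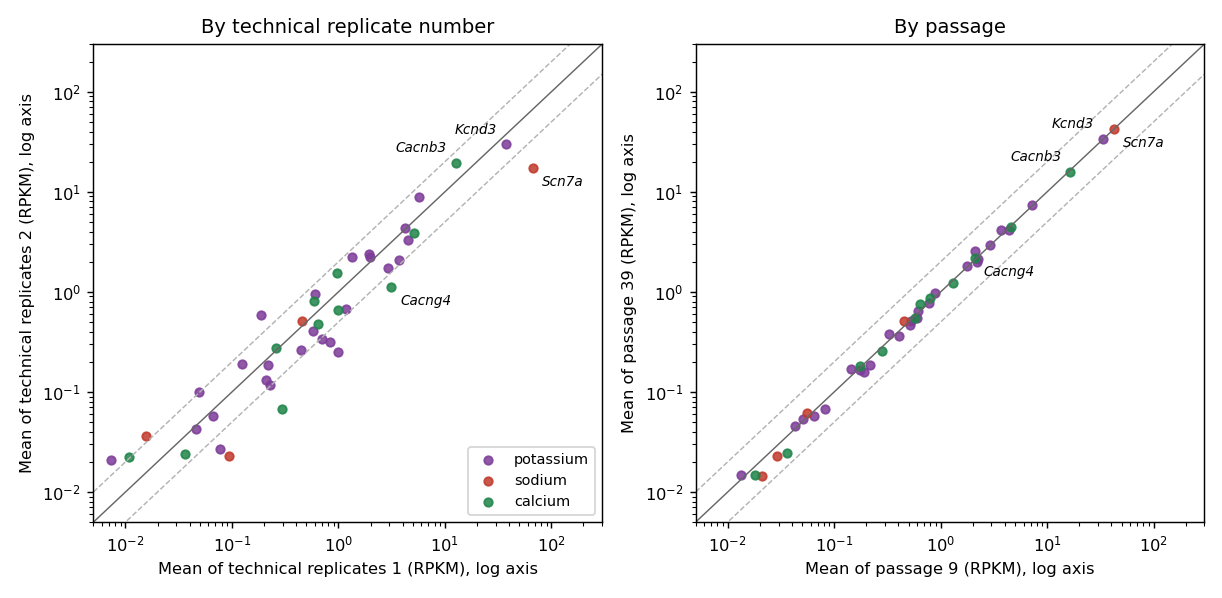
Mean RPKM on log axes of 42 of the 46 channel genes with at least 20 reads, in the second against the first technical replicates (left) and in passage 39 against passage 9 (right). Colours give the ion, the solid line is equality and the dashed lines are 2-fold. On the left 14 of the 42 points lie outside the dashed lines, Scn7a and Cacng4 among them, with Scn7a at 67.1 and 17.4 RPKM, and on the right every point lies within them.

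Channels and pumps outside the named families were also measured, from lists fixed by name. Of 11 store-operated and intracellular calcium channel genes 8 were at 1 RPKM or more in all libraries, led by Itpr3, which releases calcium from the endoplasmic reticulum, with a mean of 40.4 RPKM, and by the calcium sensors Stim2 (15.9) and Stim1 (13.7). Of 22 TRP channels 6 were, led by Trpm7, a channel fused to a kinase, at 21.2 RPKM, with Trpv4 at 3.32 and Trpm4 at 2.34. Of 9 P2X receptors and Piezo channels 5 were, led by the mechanically gated Piezo1 at 28.5 RPKM, the ATP-gated P2rx4 at 12.1 and Piezo2 at 2.57. Of 12 HCN, NALCN, ENaC and ASIC genes 3 were, Hcn2 (8.72), Asic1 (5.02) and Hcn3 (1.72). Of 18 genes of the Clcn and Ano families 9 were, with Ano5 at 82.3, Ano6 at 34.9 and Clcn4 at 29.8 RPKM. Of 14 sodium and calcium pump genes 5 were, among them Atp1b3 at 54.0 and Atp2a2 at 49.6. Set beside Itpr3, at 43.5 and 43.3 RPKM in the first and 37.7 and 37.1 in the second replicates, Scn7a was above it in the first and below it in the second. No gene of these 6 lists differed 2-fold between the replicate numbers or between the passages.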

How the data were processed

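RNA was measured in 4 libraries of unmodified S16 cells, 2 technical replicates at each of passages 9 and 39, grouped by GEO's labels. Per the methods and labels, the authors prepared TruSeq poly(A) libraries, read 50-base single ends, aligned them to rn5 with STAR, kept reads with a unique place in the genome and used HTSeq, without strand, to count them. Without strand, reads of overlapping genes cannot be told apart. The authors deposited RPKM values per gene symbol. The file names point to RefSeq gene models and the methods to Ensembl, so no coordinates are given. All 134 members were matched to RefSeq names, 132 by symbol and 2 by synonym (Kcne1l is Kcne5 and Scn2a1 is Scn2a).

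Ratios among the RPKM values gave back the library totals and whole reads that fit, for 20333 of 20333 genes above 0, with a tolerance of 0.001 reads. For each gene the shortest length that made its reads whole in every library was taken. Counts that all share a factor with the true length would therefore come out too low, above all for genes with few reads. The recovery, limma and the exact binomial test were tried on simulated data, and the exact conditional test was not. Totals were 41.4 and 35.1 M reads (M, 1000000) at passage 9 and 34.2 and 41.1 M at passage 39. These totals exceed the number of reads that the methods give per cell line, for a reason not given in the sources used here. Technical replicate numbers were compared with limma (3.58.1, R 4.3.3, trended eBayes) on log2(RPKM + 1), with Benjamini-Hochberg adjustment and a threshold of 0.05 over genes whose mean was 1 RPKM or more. The scale understates the change of low genes. Pairs of libraries were compared by two-sided exact binomial tests of reads over genes with at least 20 reads, likewise adjusted. Single-library intervals are exact 95% binomial intervals on the library total. Other steps used Python 3.11.15, numpy 2.4.6, pandas 2.3.3, scipy 1.17.1 and matplotlib 3.10.9.

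The genes named were the members at 1 RPKM in all libraries or by their mean, those 2-fold apart, the highest of each family, 32 from textbooks and the highest 3 of each further list, with others named where a count of few members or of calls below 1 RPKM needed their names. Some genes that this rule names are not reported here, although they count in the totals. The members, lists and tests were chosen with earlier results of these data known. Alternatives were other pseudocounts, minimums, scalings and library totals, passage as a block, each passage and each replicate number alone, and each library left out. A difference relative to genes of similar length, in 20 bins, the test of the difference between passages and the ratios without a pseudocount were chosen after seeing the data.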

Additional observations from a re-analysis of the deposited data

How the results depend on the processing

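With a minimum of 0.1 RPKM 31 channel genes reached it in all 4 libraries and with 5 RPKM 5 did, in place of 14. Without a filter 30 channel genes passed limma between the replicate numbers, and with a mean of at least 5 RPKM 5 did, in place of 15, since other genes were then tested. Channel genes 2-fold apart between the replicate numbers, 1 as reported, were 3 with a pseudocount of 0.1 RPKM and with a common sum, 2 with median-ratio scaling, within passage 39 and relative to genes of similar length, and 1 to 2 when each library was left out, and over all genes 120 became 251 with the pseudocount of 0.1 RPKM and 242 with the common sum. Between passages, all genes 2-fold apart were 1, with 0 at a mean of at least 5 RPKM and 9 to 27 when each library was left out, and channel genes 0, with 0 to 1. A common sum moved the median difference of all genes from 0.10 to -0.03. Of 70 log2 differences of 14 channel genes under an alternative, 67 kept their sign.

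With passage as a block, limma called 8170 genes and the same number of channel genes, 15. The labels do not say that a replicate number marks anything shared, so the libraries were not treated as paired, although the second-minus-first differences of the 2 passages correlated at 0.94 over 11025 genes. Genes below a few reads per library were beyond what this depth can compare, and 77 of the 134 channel genes had under 10 reads in all.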

Other observations

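Channel genes that lie next to each other differed widely in level in some places. By the order of genes in RefSeq's rat assembly GRCr8, Scn9a lies between Scn1a and Scn7a. The means were 0.0261 RPKM for Scn1a, 0 for Scn9a and 42.3 for Scn7a. Cacng4, with a mean of 2.14 RPKM, lies between Cacng1, with 0.0235, and Cacng5, at 0. Kcnk5 had a mean of 0.927 RPKM and its neighbour Kcnk16 was at 0, whereas Kcnj10 and its neighbour Kcnj9 had means of 0.577 and 0.353. Kcnj9 was at 0.408 and 0.481 RPKM in the first and at 0.247 and 0.274 in the second replicates, with adjusted p = 0.102 at passage 9 and 0.0527 at passage 39 by the exact binomial test, so that Kcnj9 was not called.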
